A study of Mus musculus with 24 samples.

Results

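A set of 10 genes that mark liver sinusoidal endothelial cells was followed through 24 RNA-seq libraries of whole mouse liver, and the levels of several of them fell after an acetaminophen (APAP) overdose. The genes were chosen by symbol as known markers of this cell type, with earlier results of these data known. They were Stab2, Lyve1, Clec4g, Fcgr2b, Kdr, Pecam1, Oit3, Dnase1l3, Gpr182 and Bmp2, and these 10 of 24411 genes in the files were counted in all 24 libraries. Dnase1l3 was lower at 12, 24, 48 and 72 h after APAP, Stab2 and Kdr were lower at 24, 48 and 72 h, and Lyve1 was higher at 12, 24 and 48 h. Of these calls, those of Dnase1l3 at 12 and 24 h and of Stab2 at 24 h held without either pool of that time. Each of the others was lost when 1 of the 2 pools was left out, those of Kdr at 24 and 48 h whichever pool it was. Between knockout and control livers 0 of the 10 passed the threshold. Over all genes tested, 0% and 1.19% passed it at 0 h, in 1 knockout cohort each, and 0.571% passed it after APAP.

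Sinusoidal endothelial cells line the small vessels between plates of hepatocytes, have open pores and no continuous basement membrane, and take up waste from the blood through scavenger, lectin and Fc receptors. They also release signals to hepatocytes, among them Wnt ligands around the central vein and bone morphogenetic proteins that set the level of the iron hormone hepcidin. When sinusoids lose these features they are said to capillarise, and endothelium that is activated by injury carries adhesion molecules for leukocytes.

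APAP is turned into a toxic product by hepatocytes around the central vein, and a dose of 300 mg/kg was injected into the peritoneum of male mice aged 2.5 months after a fast of about 16 h. LKO mice carried floxed E2f7 and E2f8 alleles, the R26R mTmG reporter and 1 copy of Alb-Cre on a mixed, mainly FVB background, and controls were littermates with no Cre, named WT in the labels. HKO mice were floxed mice given AAV8-TBG-Cre at 2 months of age, and their controls received AAV8-TBG-Null (AAV null below). The study used these mice to ask how livers rich in diploid hepatocytes respond to APAP. Single mice were sequenced at 0 h, fasted and without APAP, with 4 control, 4 LKO, 3 AAV null and 3 HKO mice, whereas each library at 12, 24, 48, 72 and 96 h was a pool of 3 mice, with 1 control and 1 LKO pool per time. HKO and AAV null livers were sequenced at 0 h alone. Alb and TBG drive Cre in hepatocytes, and neither is an endothelial promoter.

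Reads on genes ranged from 12665686 to 19499897 per library. Levels are given as CPM, a gene's counts relative to all counts of its library on 1 common scale, adjusted by the trimmed mean of M-values (TMM), and a member is said to be higher or lower only when edgeR's quasi-likelihood test gave a Benjamini-Hochberg adjusted p under 0.05 over all genes tested and the level differed 1.5-fold or more. The members had between 47 and 1670 counts per library, so no member was limited by detection. All 10 passed the filter on low counts in every comparison. Hepatocyte genes made up the bulk of the listed markers in each library, since the summed level of 8 hepatocyte genes was 55250 to 145600 CPM and that of the 10 members 192 to 429 CPM. E2f8 read higher, not lower, in the libraries labelled as knockouts. It had 30.6 to 83.4 CPM in HKO against 14.8 to 26.3 CPM in AAV null mice and 18.0 to 34.1 CPM in LKO against 11.8 to 18.9 CPM in control mice at 0 h. In the pools it had 14.7 to 46.4 CPM in LKO against 4.18 to 13.6 CPM in control pools. The log2 fold change of E2f8 was 1.53 in the pools (adjusted p = 0.0232 by edgeR's quasi-likelihood test), and its adjusted p was 0.257 in the HKO cohort and 0.999 in LKO mice at 0 h. E2f7 had at most 22 counts in any of the 14 mice at 0 h. Counts over a whole gene cannot separate deleted from retained exons, so they neither check the deletion nor speak for or against the labels. Counts per exon were not analysed here, and LKO and HKO stand for the libraries so labelled. In whole liver, fewer endothelial cells and less RNA per endothelial cell cannot be told apart.

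**Figure D1:**
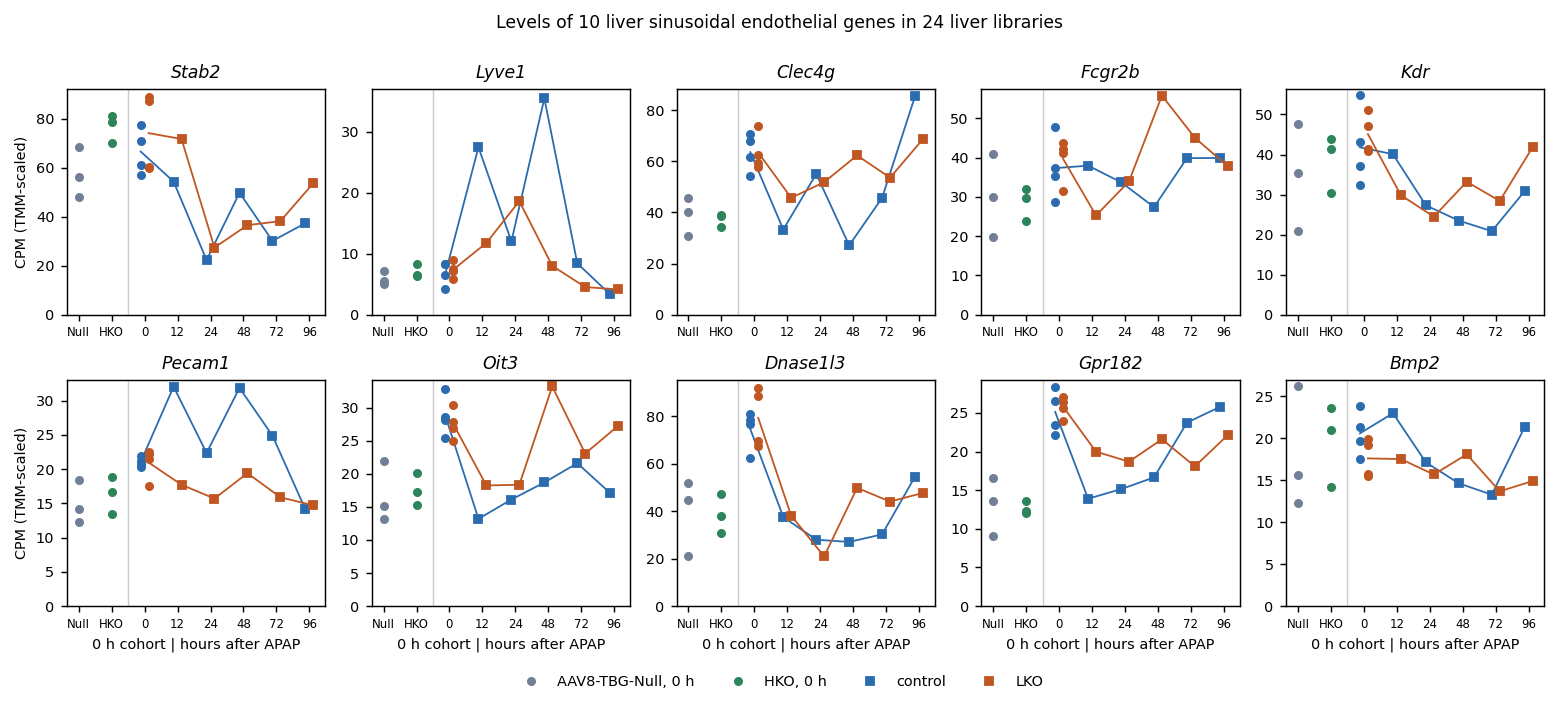
Each panel plots 1 gene in 24 libraries, with the TMM-scaled CPM on the y axis and, on the x axis, AAV null and HKO mice at 0 h, then control and LKO livers by hours after APAP; circles are single mice, squares are pools of 3 mice, and lines join the 0 h mean to the pools. Dnase1l3 ranged from 62.4 to 91.8 CPM in the 8 mice at 0 h and from 20.9 to 54.6 CPM in the 10 pools, and Lyve1 reached 35.5 CPM in the control pool at 48 h.

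At 0 h the members differed in level among themselves, which was compared as RPKM, that is CPM divided by the exon length in kilobases. In control mice Clec4g, a C-type lectin of sinusoidal endothelium also known as LSECtin, was highest with 25.8 ± 2.95 RPKM (SD, n = 4). Dnase1l3, a secreted nuclease that digests DNA in chromatin released by dying cells, followed with 14.5 ± 1.61 RPKM (SD, n = 4), and Oit3, a secreted zona pellucida domain protein, with 10.3 ± 1.11 RPKM (SD, n = 4). These first 3 genes stood in this order in each of the 4 mice, with no overlap between neighbours. Stab2, the hyaluronan scavenger receptor stabilin-2, had 7.61 ± 1.06 RPKM, Fcgr2b, the inhibitory Fc receptor that removes immune complexes, had 6.44 ± 1.36 RPKM, and Gpr182, an atypical chemokine receptor, had 6.36 ± 0.715 RPKM (SD, n = 4). Bmp2, a ligand that raises hepcidin in hepatocytes, had 5.80 ± 0.746 RPKM and Kdr, the main signalling receptor for vascular endothelial growth factor (VEGF), had 4.63 ± 1.07 RPKM (SD, n = 4). Neighbours from Stab2 down to Kdr overlapped in their RPKM between mice, so their order is not beyond the spread. Pecam1, the junction protein CD31, had 3.38 ± 0.108 RPKM and Lyve1, a hyaluronan receptor that lymphatic endothelium also carries, had 2.35 ± 0.646 RPKM (SD, n = 4), and both were below their upper neighbour in 4 of 4 mice. In LKO mice the order of the means was the same save for Kdr and Bmp2, which overlapped there.

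Between the mice labelled LKO and their controls at 0 h, 0 of 10 members were called, against 0% of 12426 genes tested. At an unadjusted p under 0.05 the test gave 0 members and 2.69% of all genes, and DESeq2 called 0 members. Stab2 was at 71.1, 61.2, 56.9 and 77.4 CPM in control mice and at 59.8, 87.4, 89.0 and 60.5 CPM in LKO mice. Dnase1l3 was at 78.4, 62.4, 80.8 and 76.7 CPM in control mice and at 67.6, 69.5, 88.4 and 91.8 CPM in LKO mice. For these and the other 8 members the genotypes overlapped, as for all but 1.18% of genes that were higher and 0.563% that were lower in every LKO mouse. The log2 fold changes lay between −0.22 for Bmp2 and 0.16 for Stab2, and the widest 95% confidence interval, that of Lyve1, ran from −0.39 to 0.65, so a change of 1.5-fold lay within the interval of Lyve1 and outside those of the other 9.

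In the HKO cohort 0 of 10 members were called, against 1.19% of 12397 genes tested (0.484% higher and 0.702% lower). At an unadjusted p under 0.05 there was 1 member, Stab2, and 12.6% of all genes, and DESeq2 called 0 members. Stab2 came nearest, with 48.1, 68.5 and 56.2 CPM in AAV null mice and 78.5, 81.0 and 70.3 CPM in HKO mice. Every HKO mouse was above every AAV null mouse, as for 8.73% of genes in this direction. The log2 fold change was 0.41 ± 0.13 (SE), with an unadjusted p of 0.00871 and an adjusted p of 0.188 by edgeR's quasi-likelihood test. The other 9 members overlapped between AAV null and HKO mice, and their log2 fold changes lay between −0.07 for Fcgr2b and 0.27 for Lyve1. AAV null mouse 1 had the lowest level of its group for 10 of 10 members, with Dnase1l3 at 21.0 CPM against 52.0 and 44.9 CPM in the other mice, and AAV null mouse 2 had the highest for 10 of 10. The summed level of 12 pan-endothelial genes was also lowest in mouse 1, at 178 CPM against 208 and 248 CPM. Without mouse 1, 0 members were called and Stab2 had a log2 fold change of 0.30. The LKO effect minus the HKO effect was called for 0 of 10 members, against 0% of 12945 genes tested, with differences between −0.35 for Bmp2 and 0.16 for Fcgr2b on the log2 scale. For this difference 0 members and 4.34% of all genes had an unadjusted p under 0.05, and DESeq2 called 0 members.

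The cohorts differed in level for some members. Gpr182 was at 9.08, 16.6 and 13.6 CPM in AAV null mice and at 22.1 to 28.3 CPM in the 4 control mice of the LKO cohort. Dnase1l3 was at 21.0 to 52.0 CPM in AAV null mice and at 62.4 to 80.8 CPM in those controls. Clec4g, Pecam1, Oit3, Dnase1l3 and Gpr182 were lower in each of 3 AAV null mice than in each of 4 controls, which is 5 of 10 members against 14.2% of genes in this direction (13% in the other, with 0 members), and 4 of them (Clec4g, Oit3, Dnase1l3 and Gpr182) were lower in each HKO than in each LKO mouse, against 12.5% of genes. Reads outside annotated features made up 12.6% to 14.7% of reads in the HKO cohort and 8.47% to 10.8% in the 0 h mice of the LKO cohort. Virus injection goes with the cohort, as does the age at deletion in the knockouts. Whether breeding or library handling also differed is not stated in the sources used here, and such differences cannot be told apart.

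After APAP the members did not move as 1 block. The test compared both pools of a time with the 8 control and LKO mice at 0 h, allowing for genotype, and the 5 times share those mice, so their results are not independent of each other. At 12 h, 4 of 10 members were called, against 30.8% of 13855 genes tested. The 24 h livers gave 6 of 10, against 25.3%, those of 48 h gave 4, against 16.2%, those of 72 h gave 3, against 16.7%, and those of 96 h gave 0, against 0.455%. At an unadjusted p under 0.05 there were 5, 6, 6 and 4 members from 12 to 72 h, against 45.3%, 39.6%, 32.4% and 32% of genes. In the lower direction stood 3, 5, 3, 3 and 0 members in order of time, against 14.2%, 11.5%, 6.45%, 5.8% and 0.123% of genes. In the higher direction stood Lyve1 alone at the first 3 times and 0 members later, against 16.6%, 13.8%, 9.78%, 10.9% and 0.332% of genes. Both pools lay below all 8 mice for 4, 5, 3, 6 and 4 members in order of time, against 17.2%, 16.5%, 10.3%, 11.3% and 6.37% of 14421 genes. They lay above all 8 mice for 1, 1, 0, 0 and 0 members, against 17.4%, 19.7%, 13.4%, 15.4% and 7.46%. The median log2 fold change of the 10 members was −0.26, −0.43, −0.32, −0.35 and −0.33 from 12 to 96 h, against −0.01, 0.00, 0.00, −0.03 and −0.02 over all genes tested. At 96 h, 3 members and 15.1% of all genes had an unadjusted p under 0.05, and DESeq2 called 0 members. All members but Fcgr2b, Pecam1 and Bmp2 were called at a time or more.

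**Figure D2:**
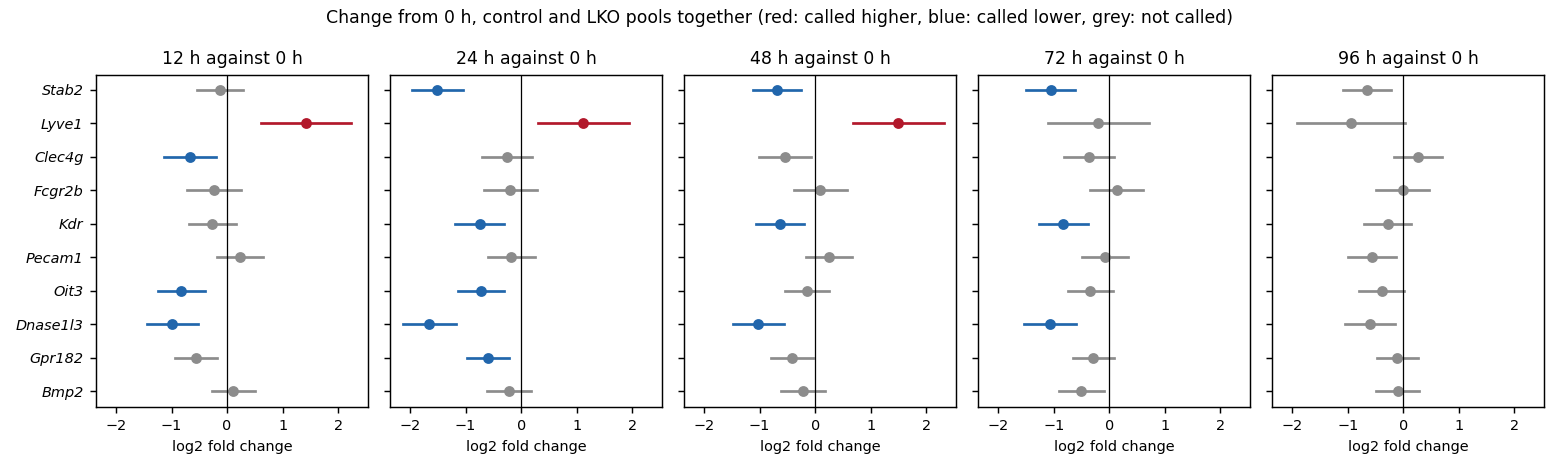
Each panel shows, for 1 time after APAP, the log2 fold change of the 10 genes against 0 h on the x axis with its 95% confidence interval, from the fit of 18 control and LKO libraries; red and blue mark genes called higher and lower, grey those not called. Dnase1l3 is blue from 12 to 72 h, Stab2 and Kdr are blue from 24 to 72 h, Lyve1 is red from 12 to 48 h, and no gene is called at 96 h.

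Among the scavenger receptors, Stab2 had its lowest level at 24 h. The 8 mice at 0 h lay between 56.9 and 89.0 CPM with a median of 66.1 CPM. The control pools had 54.4, 22.3, 49.8, 30.2 and 37.4 CPM and the LKO pools 71.8, 27.4, 36.6, 38.2 and 53.7 CPM at 12, 24, 48, 72 and 96 h. Both pools were below all 8 mice from 24 h on, and the LKO pool at 12 h was among them. Stab2 fell by 1.51 on the log2 scale at 24 h (95% confidence interval −1.97 to −1.05, adjusted p = 0.000152), by 0.69 at 48 h (adjusted p = 0.0278) and by 1.05 at 72 h (adjusted p = 0.00191) by edgeR's quasi-likelihood test. The call at 24 h held without either pool, the call at 48 h was lost without the LKO pool (log2 fold change −0.37, adjusted p = 0.361), with library size only (−0.46, adjusted p = 0.162) or with the stranded column (−0.62, adjusted p = 0.0501), and the call at 72 h was lost without the control pool (−0.99, adjusted p = 0.0883). At 96 h the log2 fold change was −0.66 with an adjusted p of 0.145.

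Lyve1, the other hyaluronan receptor, took the opposite direction. Its level at 0 h was 4.31 to 9.04 CPM in the 8 mice, with a median of 7.39 CPM. The control pools had 27.5, 12.1, 35.5, 8.44 and 3.33 CPM and the LKO pools 11.8, 18.6, 8.03, 4.55 and 4.17 CPM at 12, 24, 48, 72 and 96 h. Both pools exceeded all 8 mice at 12 and 24 h, whereas at 48 h the control pool alone did so, and at 96 h both were below all 8. Lyve1 rose by 1.42 on the log2 scale at 12 h (95% confidence interval 0.61 to 2.24, adjusted p = 0.00963), by 1.12 at 24 h (adjusted p = 0.0399) and was 2.83-fold higher at 48 h (adjusted p = 0.0148). Each of these calls rested on 1 pool: without the control pool the 12 h value was 0.83 (adjusted p = 0.299) and the 48 h value 0.20 (adjusted p = 0.849), and without the LKO pool the 24 h value was 0.50 (adjusted p = 0.601). The 24 h call was also lost without any 1 of control mice 1 to 4 or LKO mice 3 and 4 at 0 h, with log2 fold changes of 1.03, 1.08, 1.13, 1.12, 1.11 and 1.15 and adjusted p between 0.0501 and 0.062, and with no filter on low counts (adjusted p = 0.0513). Lymphatic endothelium also makes Lyve1. Of its markers 2 could be tested, of which 1 was called higher at 12 h and 0 at 24 and 48 h. Prox1, which hepatocytes make too, was at 15.8 to 34.9 CPM in the 8 mice and 14.4 to 81.7 CPM in the pools and was called higher at 12 h. Mmrn1 was at 0 to 0.177 CPM in the mice and up to 1.21 CPM in the pools, and Pdpn at 0.143 to 0.864 CPM and up to 1.32 CPM. The lowest of these values are below a floor of 3 counts, which was 0.154 to 0.237 CPM. The mean log2 change of these 3 genes from 12 to 96 h was 0.75, 0.99, 0.37, 0.51 and −0.42 in the control pools and −0.46, 0.66, 0.37, 0.72 and 0.62 in the LKO pools. Lyve1 changed by 2.06, 0.84, 2.40, 0.35 and −0.98 in the control pools and by 0.685, 1.32, 0.115, −0.705 and −0.83 in the LKO pools. The signs thus differed in the LKO pools at 12, 72 and 96 h. Ccl21a had 0 counts in all 24 libraries, but its symbol has 2 gene records, so this count says little of its level. The part of lymphatic cells in the Lyve1 values was not tested.

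Clec4g was lower at 12 h alone. Its 0 h levels were 54.1 to 73.9 CPM with a median of 62.2 CPM, and the control pools had 33.3, 55.0, 27.1, 45.7 and 85.5 CPM and the LKO pools 45.7, 51.8, 62.3, 53.6 and 68.7 CPM. Both pools were below the 8 mice at 12 h and at 72 h, and the control pool at 96 h was above them. The log2 fold change at 12 h was −0.66 (adjusted p = 0.0277), a call that was lost without the control pool (−0.52, adjusted p = 0.258) or without the LKO pool (−0.84, adjusted p = 0.0552).

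Fcgr2b was called at no time. It had 28.8 to 47.7 CPM in the 8 mice with a median of 39.3 CPM, 27.4 to 39.9 CPM in the control pools and 25.3 to 55.8 CPM in the LKO pools. Its log2 fold changes against 0 h lay between −0.24 and 0.13. B cells and macrophages carry this receptor too. The summed level of 5 B cell genes was 0.557 to 5.95 CPM over the 24 libraries, that of 8 genes of recruited monocytes and macrophages 29.1 to 63.1 CPM in the 8 mice and 50.1 to 622 CPM in the pools, and that of 8 Kupffer cell genes 186 to 454 CPM and 133 to 591 CPM. Their part in the Fcgr2b values was not tested.

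Of the growth factor receptor and the junction protein, Kdr fell and Pecam1 did not pass the test. Kdr had 32.4 to 54.8 CPM in the 8 mice with a median of 42.2 CPM, and the control pools had 40.1, 27.3, 23.5, 20.9 and 30.9 CPM and the LKO pools 29.8, 24.5, 33.2, 28.4 and 41.8 CPM. Both pools were below the 8 mice at 24 and 72 h. The log2 fold change was −0.75 at 24 h (adjusted p = 0.0128), −0.63 at 48 h (adjusted p = 0.0428) and −0.83 at 72 h (adjusted p = 0.0106). Without the control pool these were −0.92, −0.44 and −0.68 (adjusted p = 0.0574, 0.421 and 0.274), and without the LKO pool the first pair were −0.59 and −0.85 (adjusted p = 0.22 and 0.0596) and the 72 h call held (adjusted p = 0.0362). The 48 h call was the least firm, since it was also lost without control mouse 1 or 4, LKO mouse 2 or 3, the control pool of 96 h or the LKO pool of 24 h, with log2 fold changes between −0.64 and −0.56 and adjusted p between 0.0509 and 0.0635. Library size only (−0.45), both other filters on low counts and the stranded column also ended it, with adjusted p between 0.0529 and 0.144. Pecam1 had 17.6 to 22.5 CPM in the 8 mice with a median of 21.4 CPM, with 32.0, 22.3, 31.9, 24.9 and 14.1 CPM in the control pools and 17.7, 15.7, 19.4, 15.9 and 14.7 CPM in the LKO pools. The control pools at 12, 48 and 72 h lay above all 8 mice and both pools at 96 h lay below them, and the log2 fold changes were between −0.56 and 0.25 with adjusted p of 0.214 or more.

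Among the secreted products, Dnase1l3 had the lowest fold change of any member, at 24 h. It had 62.4 to 91.8 CPM in the 8 mice with a median of 77.5 CPM. The control pools had 37.5, 28.0, 27.0, 30.2 and 54.6 CPM and the LKO pools 38.1, 20.9, 49.8, 44.1 and 47.7 CPM. All 10 pools were below all 8 mice. Dnase1l3 fell by 0.99 on the log2 scale at 12 h (95% confidence interval −1.45 to −0.53, adjusted p = 0.00231), by 1.65 at 24 h (adjusted p = 0.000108), by 1.02 at 48 h (adjusted p = 0.00412) and by 1.07 at 72 h (adjusted p = 0.00239). The calls at 12 and 24 h held without either pool, and those at 48 and 72 h were lost without the control pool (−0.65 and −0.86, adjusted p = 0.175 and 0.153). At 96 h the log2 fold change was −0.60 with an adjusted p of 0.193.

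Oit3 was lower at 12 and 24 h. Its 0 h levels were 24.9 to 32.8 CPM with a median of 28.0 CPM, and the control pools had 13.2, 16.1, 18.7, 21.6 and 17.1 CPM and the LKO pools 18.2, 18.3, 33.2, 23.1 and 27.2 CPM. All control pools were below the 8 mice, whereas the LKO pools at 48 and 96 h were not. The log2 fold change was −0.82 at 12 h (adjusted p = 0.00438) and −0.72 at 24 h (adjusted p = 0.0114), and without the control pool the values were −0.71 and −0.74 (adjusted p = 0.0869 and 0.106). Without the LKO pool the 12 h call held, and the 24 h value was −0.70 (adjusted p = 0.136). With library size only the 24 h value was −0.58, under 1.5-fold.

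Gpr182 had 22.1 to 28.3 CPM in the 8 mice with a median of 26.1 CPM, with 13.9, 15.1, 16.7, 23.8 and 25.8 CPM in the control pools and 20.0, 18.7, 21.6, 18.1 and 22.2 CPM in the LKO pools. Both pools were below the 8 mice at 12, 24 and 48 h. The log2 fold change was −0.60 at 24 h (adjusted p = 0.0198), a call lost without the control pool (−0.48, adjusted p = 0.25) or the LKO pool (−0.73, adjusted p = 0.0954) under 1.5-fold without control mouse 1 (−0.57), and lost with library size only (−0.46) or the stranded column (−0.54), and −0.56 at 12 h (adjusted p = 0.0231), which is under 1.5-fold. Bmp2 had 15.6 to 23.8 CPM in the 8 mice with a median of 19.5 CPM, 13.3 to 23.0 CPM in the control pools and 13.7 to 18.1 CPM in the LKO pools. Its largest log2 fold change was −0.50 at 72 h, where both pools were below the 8 mice (adjusted p = 0.0784).

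The promoter strands of Stab2, Kdr and Clec4g are printed because Stab2 and Kdr were lower at the same 3 times and Clec4g at another. RefSeq (GRCm38.p6) gave a promoter window for 4 of 10 members, and the stretch upstream of the first exon is shown 5′ to 3′ on the gene's strand, which for Fcgr2b leaves no base. Capitals mark matches to AGATAN, the core of a GATA site, or to GGAAG, the core of an ETS site, on either strand.
Stab2, chr10:87008026-87008192, minus strand: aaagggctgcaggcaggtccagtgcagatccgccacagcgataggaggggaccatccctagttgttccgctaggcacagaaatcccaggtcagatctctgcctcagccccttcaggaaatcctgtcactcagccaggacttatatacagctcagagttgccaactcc
Kdr, chr5:75978459-75978705, minus strand: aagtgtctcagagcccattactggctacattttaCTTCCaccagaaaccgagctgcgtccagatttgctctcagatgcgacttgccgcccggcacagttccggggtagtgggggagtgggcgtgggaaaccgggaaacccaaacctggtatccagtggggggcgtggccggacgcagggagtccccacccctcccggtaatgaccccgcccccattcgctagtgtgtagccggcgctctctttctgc
Clec4g, chr8:3720652-3720901, minus strand: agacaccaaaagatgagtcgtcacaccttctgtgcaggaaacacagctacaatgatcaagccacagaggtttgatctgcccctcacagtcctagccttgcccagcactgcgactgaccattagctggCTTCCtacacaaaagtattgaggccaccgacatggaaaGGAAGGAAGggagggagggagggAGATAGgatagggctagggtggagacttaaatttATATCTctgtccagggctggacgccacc
In windows of 250 bases before the RefSeq start, Clec4g held 2 matches to AGATAN and 3 to GGAAG, Kdr and Stab2 held 1 match each to GGAAG and 0 to AGATAN, and the GGAAG match of Stab2 lies in the part not shown. AGATAN occurs in 26.5% and GGAAG in 64.1% of 32851 promoter windows of that length, so these letters are common. GGGNNTTCC, an NF-kB motif, was found in 0 of the 4 windows and in 5.0% of all.

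Between genotypes after APAP, the 5 pairs of pools were compared with time as a block, and 0 of 10 members were called, against 0.571% of 13659 genes tested (0.256% higher and 0.315% lower in LKO pools). At an unadjusted p under 0.05 there were 2 members and 17.3% of all genes, and DESeq2 called 0 members. Pecam1 had log2 differences, LKO pool minus control pool, from 12 to 96 h of −0.87, −0.50, −0.72, −0.67 and 0.05. Over the 5 times its log2 fold change was −0.56 ± 0.17 (SE, unadjusted p = 0.00672, adjusted p = 0.14). The LKO pool was above the control pool for Oit3 at 5 of 5 times, as were 8.2% of genes, by 0.45, 0.19, 0.82, 0.06 and 0.66 on the log2 scale (0.43 ± 0.17 over the 5 times, SE, unadjusted p = 0.024, adjusted p = 0.22). Neither passed the threshold. Lyve1 had log2 differences of −1.23, 0.63, −2.13, −0.91 and 0.30, and its value over the 5 times was −0.71 ± 0.39 (SE, adjusted p = 0.374).

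**Figure D3:**
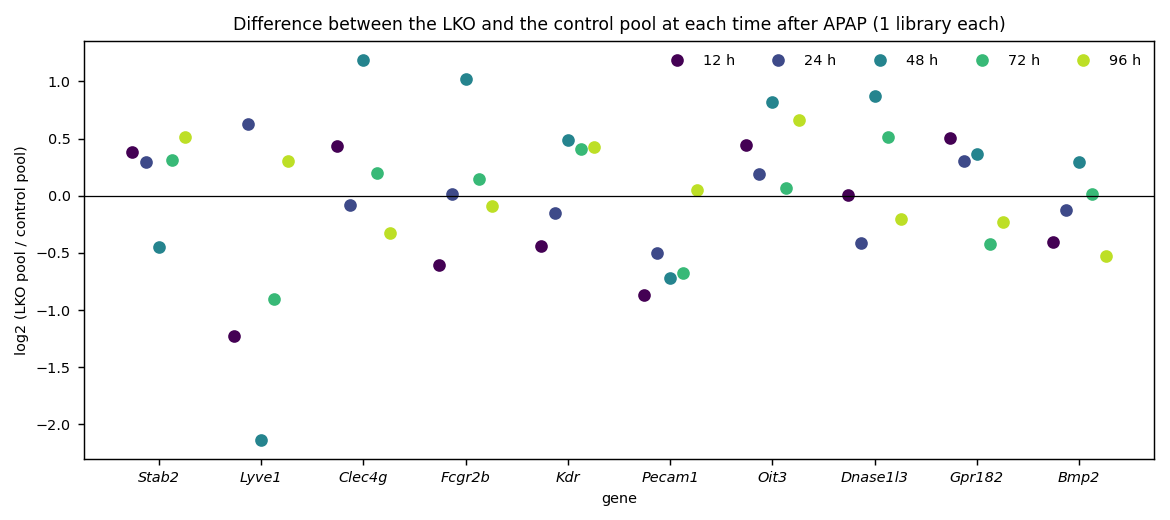
The y axis gives the log2 ratio of the LKO to the control pool for each of the 10 genes on the x axis, with 1 point for each time after APAP; each point compares 1 library with 1 library, so it has no error bar. Lyve1 is at −2.13 at 48 h, where Clec4g is at 1.19 and Fcgr2b at 1.02, Oit3 lies above 0 at all 5 times, and Pecam1 lies between −0.87 and 0.05.

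At 48 h 3 members differed 2-fold or more between the pools. Clec4g was at 27.1 CPM in the control and 62.3 CPM in the LKO pool, Fcgr2b at 27.4 and 55.8 CPM, and Lyve1 at 35.5 and 8.03 CPM. Clec4g and Fcgr2b were thus 2-fold or more higher in the LKO pool, as were 7.27% of 14421 genes, and Lyve1 was 2-fold or more lower, as were 10.5%. There is no replicate check of a difference at a single time. Whether the change from 0 h, averaged over the 5 times, differed between genotypes was tested in 18 libraries, and 0 of 10 members were called, against 0% of 13855 genes tested. At an unadjusted p under 0.05 there were 2 members (Pecam1, −0.55, adjusted p = 0.483, and Oit3, 0.50, adjusted p = 0.483) and 9.3% of all genes, and DESeq2 called 0 members.

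The profiles of the members over the 18 control and LKO libraries were unlike. The Pearson r of a gene with the mean standardized profile of the other 9 was 0.895 for Dnase1l3, 0.808 for Kdr, 0.66 for Stab2, 0.582 for Gpr182 and 0.572 for Oit3. It was 0.319 for Bmp2, 0.305 for Clec4g, 0.227 for Fcgr2b, −0.102 for Pecam1 and −0.534 for Lyve1. Outside the members, the 5 of 14411 genes with the highest r with the mean profile of the 10 were Acads (0.928), Zdhhc9 (0.923), Smim13 (0.914), Abcg8 (0.907) and 9530068E07Rik (0.897), and these points share libraries in which 10 pools differ from 8 mice.

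The calls of other endothelial genes against 0 h are read beside the share of all genes called, which was 30.8%, 25.3%, 16.2%, 16.7% and 0.455% from 12 to 96 h. Of 12 pan-endothelial genes, 2 were higher and 1 was lower at 12 h, 1 was higher and 3 were lower at 24 h, 1 was lower at 48 h and 1 was lower at 72 h, so 3 of 12 and 4 of 12 at the first times were near that share. At 96 h 0 of the 12 were called by edgeR's quasi-likelihood test, 4 had an unadjusted p under 0.05, and DESeq2 was not summed over this list. Esam, a tight junction molecule, rose by 1.02 and Cdh5, the adherens junction protein VE-cadherin, by 0.81 on the log2 scale at 12 h (adjusted p = 0.00137 and 0.00236), and without the control pool the Cdh5 call was lost (0.70, adjusted p = 0.0644). Tie1, a receptor kinase of endothelium, fell by 1.09 at 24 h and by 0.97 at 48 h (adjusted p = 0.000692 and 0.00248), the latter not called without the control pool (−0.93, adjusted p = 0.0677). Measured against the mean of these 12 genes within each genotype, Dnase1l3 was below its 0 h level in 10 of 10 pools, by −1.36 to −0.24 on the log2 scale. Stab2 and Kdr were below it in 9 of 10 pools each, and Oit3 and Gpr182 in 7 of 10. The other 5 were below it in 3 or 4 pools, with 4 of 10 for Clec4g, Pecam1 and Bmp2 and 3 of 10 for Fcgr2b and Lyve1. The share of all genes that lay so was not counted. The pools of a genotype are set against the same 0 h mice, so these counts are not independent.

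A list of 9 further uptake and surface genes of sinusoidal endothelium, mostly scavenger and lectin receptors but with the Fc receptor Fcgrt, Plxnc1 and Ehd3 among them, had 1 higher and 1 lower at 12 h, 1 higher and 4 lower at 24 h, 1 higher and 2 lower at 48 h, and 2 higher and 1 lower at 72 h, against 30.8%, 25.3%, 16.2% and 16.7% of all genes called. Stab1, the paralog of Stab2, rose by 1.03 on the log2 scale at 12 h (adjusted p = 0.000513) and fell by 0.70 at 24 h (adjusted p = 0.0187), and each call was lost without the LKO pool of that time (0.64 and −0.45, adjusted p = 0.0552 and 0.341), the 24 h call also with library size only and with the stranded column. Stab1 and Stab2 therefore had values of opposite sign at 12 h, and that difference was not tested. Ehd3, which acts in endocytic recycling, fell by 1.18 at 24 h (adjusted p = 0.000441), and this call held without either pool. Clec1b, the lectin receptor CLEC-2, rose by 1.25 at 72 h (adjusted p = 0.00154), a call lost without the LKO pool (0.91, adjusted p = 0.0897). Kupffer cells also carry Clec1b, and 3 of 8 Kupffer cell genes were higher at 72 h, against 10.9% of all genes. Their part in the Clec1b value was not tested.

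Of 10 transcription factors of this endothelium, 2 were higher and 1 was lower at 12 h, 1 was lower at 24 h, and 0 were called at 48, 72 and 96 h, where 2, 2 and 1 had an unadjusted p under 0.05 by edgeR's quasi-likelihood test. The 3 of 10 at 12 h stood against 30.8% of all genes and the 1 of 10 at 24 h against 25.3%. At 48, 72 and 96 h, 16.2%, 16.7% and 0.455% of all genes were called, and 32.4%, 32% and 15.1% had an unadjusted p under 0.05. Maf, which drives the sinusoidal programme, fell by 0.64 at 12 h (adjusted p = 0.00457, and −0.50 with adjusted p = 0.078 without the LKO pool) and by 1.15 at 24 h (adjusted p = 0.00012), and the 24 h call held without either pool. Gata4 was higher in HKO than in AAV null mice at 0 h by 0.74 on the log2 scale (adjusted p = 0.037), a call lost without any 1 of AAV null mice 1 to 3 and HKO mice 1 and 3 (with the highest adjusted p, 0.162, and a log2 fold change of 0.69, without AAV null mouse 2), and in a joint fit of the 14 mice.

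Of 10 genes of activated or capillarised endothelium, 4 were higher at 12 h, 2 at 24 h, 2 higher and 1 lower at 48 h, 6 higher at 72 h and 1 lower at 96 h. The genes called higher over the whole table were 16.6%, 13.8%, 9.78% and 10.9% from 12 to 72 h, and 0.123% were called lower at 96 h. Sele, the leukocyte adhesion molecule E-selectin, had at most 0.236 CPM in the 8 mice at 0 h and 4.74 and 1.58 CPM in the control and LKO pools at 12 h (adjusted p = 6.02e-05), and Selp, P-selectin, rose by 1.66 on the log2 scale at 12 h (adjusted p = 0.000336). The Selp call was lost with the column that reads 1 strand (0.49) and in LKO libraries only (1.09). Col4a1, a chain of basement membrane collagen, rose by 1.48 at 48 h and 1.38 at 72 h (adjusted p = 0.00187 and 0.00258), and both calls were lost without the control pool (0.75 and 0.79, adjusted p = 0.233 and 0.317). In the LKO pools this list was below the control pools over 12 to 96 h for 9 of 10 genes, with 0 called by edgeR's quasi-likelihood test, 4 at an unadjusted p under 0.05, against 17.3% of all genes, and a median log2 fold change of −0.52, against −0.02 over all genes. Markers of other cells lay the same way, with 7 of 7 neutrophil genes (median −0.996), 7 of 8 of recruited monocytes and macrophages (median −0.46) and 4 of 4 of cholangiocytes (median −1.08) below the control pools and 0 of them called. Genes of B cells (0 of 4 below, median 0.43), dendritic cells (0 of 4, median 0.36) and lymphatic endothelium (0 of 2, median 0.80) lay the other way. Below the control pools were also 3 of 8 Kupffer cell genes (median 0.06), 5 of 8 stellate cell genes (median −0.14) and 6 of 8 hepatocyte genes (median −0.24). The part of these cells in the values of this list was not tested.

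**Figure D4:**
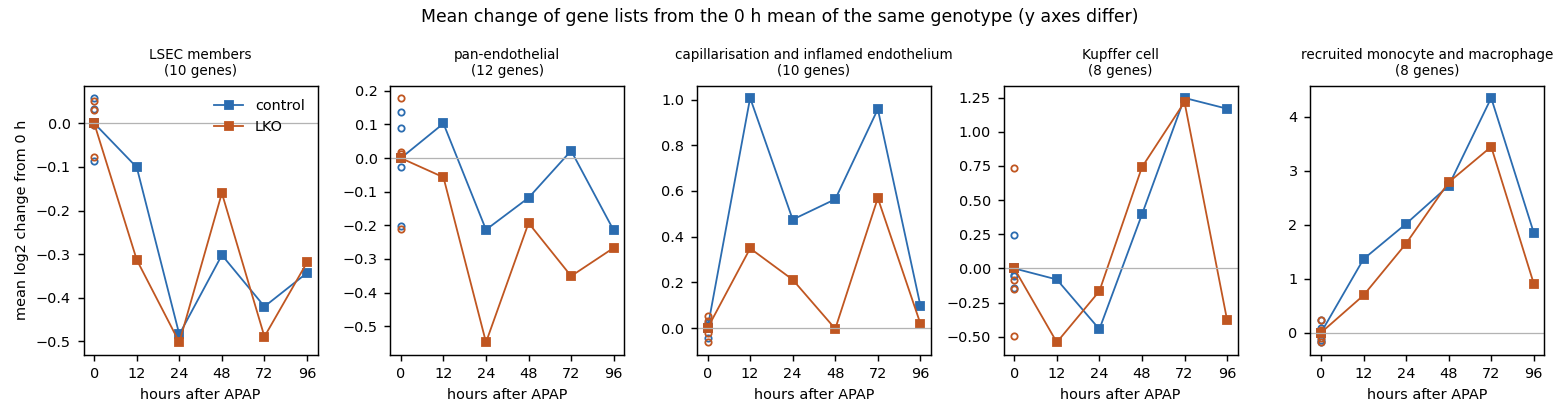
The y axis of each panel is the mean log2 change of a gene list from the 0 h mean of the same genotype and the x axis is hours after APAP; open circles are single mice at 0 h and squares are pools, and the y axes differ between panels. The 10 sinusoidal endothelial genes were at −0.48 and −0.50 at 24 h in control and LKO pools, and 10 genes of capillarised or inflamed endothelium were at 1.01 in the control and 0.35 in the LKO pool at 12 h.

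Zonal and signalling genes of this endothelium were counted by list, beside the same shares of all genes (30.8%, 25.3%, 16.2% and 16.7% from 12 to 72 h). Among 8 genes of pericentral endothelium and its angiocrine signals, 2 were higher at 12 h, 3 lower at 24 h, 1 higher and 1 lower at 48 h and 2 higher at 72 h. Thbd, the thrombin receptor thrombomodulin, rose by 2.50 on the log2 scale at 12 h (adjusted p = 5.99e-05) with or without either pool, and Wnt2, the central vein Wnt ligand, fell by 1.87 at 24 h (adjusted p = 0.00157, and −1.34 with adjusted p = 0.0781 without the LKO pool). Angpt2, a ligand of the Tie2 receptor, was at 19.0 CPM in the control and 1.92 CPM in the LKO pool at 48 h, and its rise by 3.21 (adjusted p = 0.00123) was lost without the control pool (1.06, adjusted p = 0.436). Of 8 periportal and arterial genes, 1 was higher at 12 h, 1 lower at 24 h, and 1 higher and 1 lower at both 48 and 72 h. Of 8 VEGF ligands and receptors other than Kdr, 2 were higher and 1 lower at 12 h, 1 higher and 3 lower at 24 h, 1 higher and 1 lower at 48 h, and 1 higher and 2 lower at 72 h. Pgf, a ligand of the VEGF receptor Flt1, had at most 1 count in each of the 8 mice at 0 h and 45 and 121 counts in the control pools at 24 and 48 h. Pgf is the gene called higher at 24, 48 and 72 h and 1 of the 2 at 12 h, and each call was lost without 1 pool. Its log2 fold change at 12 h was 4.18 (adjusted p = 0.0458, called in 10 of 26 alternatives) and −3.14 without the LKO pool. At 72 h it was 4.07 (adjusted p = 0.0415, called in 11 of 26) and −1.19 without the control pool. Without the control pool its adjusted p was 0.0654 at 24 h and 0.412 at 48 h.

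For the BMP pathway to which Bmp2 belongs, 14 ligands, co-receptors and targets gave 2, 1, 1 and 2 higher genes from 12 to 72 h and 0 lower ones by edgeR's quasi-likelihood test, against 16.6%, 13.8%, 9.78% and 10.9% of all genes called higher. At an unadjusted p under 0.05 there were 4, 4, 3 and 6 in either direction, against 45.3%, 39.6%, 32.4% and 32% of all genes. Id1, a direct target of BMP signals, was at 3.03 to 14.3 CPM in the 8 mice, 76.5, 100, 59.8, 82.8 and 21.0 CPM in the control pools and 32.1, 52.0, 23.6, 13.4 and 6.85 CPM in the LKO pools. Id1 rose by 2.83, 3.33, 2.40 and 2.41 on the log2 scale from 12 to 72 h (adjusted p = 0.000192, 0.0001, 0.00157 and 0.00125), and without the control pool the 48 and 72 h calls were lost (2.27 and 1.36, adjusted p = 0.0509 and 0.211). Over 12 to 96 h it was lower in LKO pools by 1.57 (adjusted p = 0.0254), a call lost without time as a block (−1.43), without the pools of 12 h (−1.63) or without those of 48 h (−1.61, adjusted p = 0.0838). Bmp2 itself was called in neither comparison, and Bmp6, the other endothelial ligand of this pathway, had log2 fold changes between −0.54 and 0.53 against 0 h, with 0 calls.

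Markers of other cells were counted over the same times, beside the shares of all genes called, which were 16.6%, 13.8%, 9.78%, 10.9% and 0.332% higher and 14.2%, 11.5%, 6.45%, 5.8% and 0.123% lower from 12 to 96 h. Of 8 genes of recruited monocytes and macrophages, 3, 6, 8, 8 and 3 were higher from 12 to 96 h, and their summed level was 29.1 to 63.1 CPM in the 8 mice and 50.1 to 622 CPM in the pools. Of 7 neutrophil genes, 4, 5, 3, 3 and 0 were higher, with sums of 2.59 to 12.5 CPM in the 8 mice and 2.47 to 36.2 CPM in the pools. Of 8 Kupffer cell genes, 0, 1, 1, 3 and 0 were higher and 1, 2, 0, 0 and 0 lower from 12 to 96 h. Of 8 stellate cell genes 1, 1, 2, 4 and 0 were higher and 1, 0, 0, 0 and 0 lower. Of 8 hepatocyte genes 1, 2, 0, 0 and 0 were higher and 1, 2, 1, 0 and 0 lower. Of 5 dendritic cell genes 0, 0, 0, 2 and 0 were higher and 0 lower, and of 5 B cell genes 0 were called at each time. Of 4 cholangiocyte genes 1, 1, 1, 0 and 0 were higher and 0, 0, 1, 1 and 0 lower. Cyp2e1, the main APAP-activating enzyme of hepatocytes, fell by 2.62 on the log2 scale at 48 h (adjusted p = 0.00268), with or without either pool. Kupffer cell genes summed to 186 to 454 CPM in the 8 mice and 133 to 591 CPM in the pools, and 8 hepatocyte genes to 55250 to 129000 and 75780 to 145600 CPM. Stellate cell genes summed to 239 to 399 CPM and 353 to 613 CPM. Of the lymphatic list 2 genes could be tested, and Prox1, which hepatocytes also make, rose by 1.36 at 12 h (adjusted p = 0.000953). The control pool at 12 h, where Lyve1 was at 27.5 CPM, also had the highest cholangiocyte sum, 131 CPM against 5.04 to 33.0 CPM in the other libraries, of which Sox9 gave 122 CPM. The part of these cell markers in the members' changes was not tested.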

How the data were processed

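Whole-liver RNA, selected for poly(A), was sequenced from 14 single mice and 10 pools. The authors used Trimmomatic for trimming and STAR with the mm10 build for alignment, and the deposited values are raw counts per gene from STAR; the annotation version is not given in the sources used here. The column that disregards strand was used, so overlapping genes on opposite strands are not separated. Library sizes exclude 4 summary entries, such as unmapped reads (no-feature reads were 7.30% to 14.7%). Groups came from the sample labels. The members and gene lists were chosen with earlier results of these data known.

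Counts were tested with edgeR 4.0.16 (R 4.3.3; filterByExpr, TMM, robust quasi-likelihood fit, Benjamini-Hochberg adjustment over all genes tested). Knockout and control were compared at 0 h in each cohort, and over the 10 pools with time as a block. Each time was compared with 0 h in 18 libraries with genotype and time as terms, so 1 pool per genotype stands for each time. P-values measure the spread of these mice and pools about each fit, and a pool averages 3 mice. In the tests of time, a genotype difference in the response to APAP goes into that spread. In the test over the 10 pools, so does a genotype difference that varies with time. Alternatives were DESeq2 1.42.0, RLE scaling, library size only, other filters, the stranded column, a replicate block, 1 genotype alone and leaving out each library. The tests were checked on simulated data. Exon lengths and positions were those of GENCODE on GRCm38, which matched 95.8% of symbols. All 10 members are named, with at most 4 called genes of each other list (lowest adjusted p in the 12 h, 48 h or 12 to 96 h comparison, otherwise the first 2) and the 5 genes most alike by Pearson r. A library floor of 3 counts was 0.154 to 0.237 CPM, for counting error only.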

Additional observations from a re-analysis of the deposited data

How the results depend on the processing

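Of the 17 calls of members against 0 h, 3 held under all 27 alternatives (Dnase1l3 at 12 and 24 h and Stab2 at 24 h), 12 were lost without the control pool of that time and 7 without its LKO pool. Leaving out 1 library, members called ranged from 1 to 5 at 12 h, 2 to 6 at 24 h, 1 to 4 at 48 h and 0 to 3 at 72 h, and stayed at 0 (0 to 0) at 96 h, between genotypes in either cohort or over 12 to 96 h, and for both differences of effects. At 48 h, 2 members were called with library size only, where 2674 of all genes were called, and 2 with the stranded column, where 1968 were called. At 24 h 2 were called in control libraries only, and in LKO libraries only 1 was called at 12 h and 0 at 72 h; these fits have fewer samples. With library size only the mean log2 change of the members at 48 h in the control pool was 0.034 in place of −0.302. Pgf turned sign at 12 h in control libraries only (−1.64) and over leaving out 1 library ranged from −3.14 (without the LKO pool) to 6.55; at 72 h it did so in LKO libraries only (−2.39) and ranged from −1.19 (without the control pool) to 4.93, and Selp did at 24 h with the stranded column (−0.15); the cause was not tested. Over all genes, calls in LKO libraries only numbered 1607, 1270, 353, 420 and 17 from 12 to 96 h, and in control libraries only 1835 at 24 h and 11 at 96 h, against 4266, 3504, 2249, 2314 and 63. Between genotypes over 12 to 96 h the 78 genes called became 595 with DESeq2, 181 with no filter, 50 with the strict filter, 39 with library size only, 0 without the time block and 8 to 169 without 1 pair of pools. The 63 at 96 h became 338 with DESeq2, 35 with library size only, 28 with the stranded column and 11 to 109 without 1 library, and the 147 of the HKO cohort 324 with DESeq2, 226 with no filter, 27 in the joint fit and 71 to 296 without 1 mouse. DESeq2 gave 3, 36 and 19 genes where 0 were called at 0 h in LKO and for the differences of responses and of knockout effects, so in these comparisons and at 96 h the share of all genes set beside the members depends on the tool. Without 1 library the genes called ranged from 2161 to 4464 at 12 h, 1165 to 3690 at 24 h, 529 to 2497 at 48 h and 523 to 2513 at 72 h (1513 with the strict filter). With library size only the share of higher calls was 69.4% against 54.7% at 24 h, 82% against 60.2% at 48 h and 80.6% against 65.3% at 72 h, with the median of all genes at 0.14, 0.20 and 0.07 on the log2 scale. Same-numbered control and LKO mice correlated in their deviations at −0.379 to 0.223, and AAV null and HKO mice at −0.0307 to 0.198, so the numbers do not pair the mice; with a replicate block 0 members were called in each of 3 fits, and over all genes 267 in place of 147 in the HKO cohort. Each time after APAP rests on 1 pool per genotype, and counts of 47 or more per member leave depth a minor limit.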
